A study of Mus musculus with 6 samples.

Results

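The erythroid and heme genes of mouse liver were read from 1 FPKM table of 3 WT and 3 *β-cateninΔ(ex3)/+* livers. They comprise 40 genes chosen by name: the globin chains and their chaperone, red cell membrane proteins, erythroid regulators, genes of red cell maturation, and the enzymes that make heme and reduce its breakdown product. Of these, 37 had a row among the 31950 genes of the table, and *Hbb-y*, *Hba-x* and *Ahsp* were not analysed here. All 6 mice were labelled C57BL/6 and 8 weeks old, and the age of the WT mice goes against genes of the young liver described below. In the mutant livers, exon 3 had been deleted from 1 *Ctnnb1* allele. Loss of this exon stabilises β-catenin, the transcriptional coactivator of the Wnt pathway. The study describes several ways of deleting the exon in hepatocytes, among them an albumin-driven Cre that tamoxifen activates, and neither the way used for these 6 livers nor whether the WT mice received Cre or tamoxifen is given in the sources used here. Each library came from 1 liver, and the p-values below set the difference between the groups against the spread within these 3 and 3 samples. Those from limma also draw on the spread of all genes tested.

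Red cells carry oxygen on hemoglobin, a tetramer of α and β globin chains that each hold a heme. Heme is built from glycine and succinyl-CoA in a chain of reactions shared by all cells. Its rate-limiting first step is catalysed by ALAS2 in erythroid cells and by ALAS1 elsewhere, and the hepatocyte is, after the erythroid cell, the main user of the pathway. The liver is the blood-forming organ of the mouse fetus, and erythroblasts leave it after birth. Reticulocytes in the blood of adult vessels still hold globin mRNA after the regulators of the erythroblast have been shut off. In RNA from whole tissue, fewer cells of a type and less RNA per cell cannot be told apart.

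GATA factors, which act in erythroid cells, bind the letters AGATAA or TGATAA, and KLF1 binds CCACACCC. These were searched on both strands in the 250 bases before the RefSeq gene start (build GRCm38.p6), which the promoter table gave for 30 of the 37 members. AGATAA or TGATAA was found for 13 of 21 erythroid members and 3 of 9 heme members, against 18.8% of all 27025 genes with a window. CCACACCC was found for *Hbb-bs* alone among the members and for 3.68% of all genes. The sequences below show 3 of the 4 adult globins (*Hba-a2* had the same match as its copy *Hba-a1*), *Alas2* and 2 genes that were at or near 0 in mutant livers, each 5′ to 3′ on the strand of its gene and only as far as the gene's start in the deposited table, with the matches in capitals (TTATCT is AGATAA and TGAGTCA is TGACTCA read on the other strand). They lie at chr11:32283422-32283510 (+) for *Hba-a1*, chr7:103827929-103828178 (−) for *Hbb-bs*, chr7:103813997-103814173 (−) for *Hbb-bt*, chrX:150547167-150547374 (+) for *Alas2*, chr4:134864286-134864535 (+) for *Rhd* and chr17:36869324-36869573 (+) for *Trim10*.
Hba-a1: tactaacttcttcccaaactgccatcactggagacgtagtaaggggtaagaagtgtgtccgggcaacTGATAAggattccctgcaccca
Hbb-bs: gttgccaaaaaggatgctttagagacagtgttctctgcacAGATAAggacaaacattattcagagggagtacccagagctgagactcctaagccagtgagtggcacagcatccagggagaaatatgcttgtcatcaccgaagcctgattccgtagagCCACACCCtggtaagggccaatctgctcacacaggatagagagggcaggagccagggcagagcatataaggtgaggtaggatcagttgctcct
Hbb-bt: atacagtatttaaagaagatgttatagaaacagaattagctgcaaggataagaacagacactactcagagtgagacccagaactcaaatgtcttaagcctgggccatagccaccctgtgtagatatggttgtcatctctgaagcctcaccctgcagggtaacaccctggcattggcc
Alas2: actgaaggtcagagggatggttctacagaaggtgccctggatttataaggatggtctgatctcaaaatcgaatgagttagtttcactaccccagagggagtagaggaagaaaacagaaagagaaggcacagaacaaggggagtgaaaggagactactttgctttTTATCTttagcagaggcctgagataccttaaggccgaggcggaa
Rhd: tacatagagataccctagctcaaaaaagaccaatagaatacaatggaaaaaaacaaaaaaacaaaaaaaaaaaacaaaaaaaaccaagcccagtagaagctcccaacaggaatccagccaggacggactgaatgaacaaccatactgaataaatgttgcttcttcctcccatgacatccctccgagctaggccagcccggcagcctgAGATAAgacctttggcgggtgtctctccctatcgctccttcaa
Trim10: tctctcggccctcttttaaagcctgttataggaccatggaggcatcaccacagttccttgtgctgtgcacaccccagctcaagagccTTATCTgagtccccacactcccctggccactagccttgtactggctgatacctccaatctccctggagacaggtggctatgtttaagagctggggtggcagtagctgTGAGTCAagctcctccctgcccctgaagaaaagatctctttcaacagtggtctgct
The adjacent β globin genes *Hbb-bs* and *Hbb-bt* differed in these windows, where *Hbb-bs* held both an AGATAA and the CCACACCC motif and *Hbb-bt* held none of the motifs searched. The AP-1 and NF-E2 core TGACTCA was found for *Kel* and *Trim10* among the members and for 5.16% of all genes, and the TCF core CTTTGAT for *Mkrn1* alone and for 3.72% of all genes. A match is a description of the letters and does not show that a factor binds there.

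The depth estimated from the table was 24.4 to 24.7 M fragments in WT and 16.9 to 19.5 M in mutant livers. *Ctnnb1* was at 27.0 ± 1.06 FPKM in WT and at 25.2 ± 0.175 FPKM in mutant livers (SD, n = 3 each), and values per gene do not show the loss of exon 3. *Glul*, a β-catenin target of the liver, rose from 103 ± 1.25 to 626 ± 7.13 FPKM (SD, n = 3 each). Of the 13243 genes tested, 1082 rose and 598 fell at an adjusted p under 0.05 and a fold change of at least 2. The median gene was higher by 0.14 on the log2 scale, which median-ratio scaling brought to 0.0081 with 851 genes higher and 751 lower, and quantile normalization to -0.020 with 797 higher and 812 lower. The groups also differed in 2 further ways. *Xist* lay between 20.3 and 22.2 FPKM in WT and between 0 and 0.0146 FPKM in mutant livers, and the Y-linked *Eif2s3y* between 0 and 0.0169 FPKM in WT and between 9.20 and 9.94 FPKM in mutant livers, so that sex and genotype cannot be told apart in any comparison below. All 7 genes of a list that marks the fetal and newborn liver fell, 5 of them tested only because WT was high, and their summed level was 3827 to 3895 FPKM in WT and 4.34 to 4.79 FPKM in mutant livers. *Afp* had 608 ± 5.94 FPKM in WT and 2.55 ± 0.226 FPKM in mutant livers (SD, n = 3 each), *H19* had 2353 ± 28.6 and 0.026 ± 0.0196 FPKM, and *Igf2* had 829 ± 22.9 FPKM in WT and was listed at 0 in mutant livers. *Gpc3* had a log2 fold change of -4.47. These genes are normally silenced after birth, so these levels go against the labelled age of the WT livers. Age and genotype therefore cannot be told apart in any comparison below.

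Most erythroid genes were lower in mutant livers, whereas 3 of the 8 heme synthesis enzymes were higher at a share near that of all genes (3 of the 10 heme members at an adjusted p under 0.05 and any fold, beside 37.4% of all genes tested). The globins were at 38.2% to 61.2% of their WT level, the band 3 gene *Slc4a1* at 5.21% of it, and *Rhd*, *Rhag*, *Kel* and *Tspo2*, each above 0 in all 3 WT livers, were listed at 0 in all 3 mutant livers. *Alad* and *Uros* rose, and *Alas1* exceeded *Alas2* in mutant livers, the reverse of WT. Of the 37 members, 26 reached a mean of 0.5 FPKM and were tested with limma on log2(FPKM + 1), a scale that understates the change of genes with low FPKM. At an adjusted p under 0.05 and a 2-fold change, 2 of the 26 rose (*Alad* and *Uros*), beside 8.17% of all genes tested, and 5 fell (*Hbb-bs*, *Hbb-bt*, *Alas2*, *Slc4a1* and *Rhd*), beside 4.52% of all genes tested. At an adjusted p under 0.05 and any fold, 4 members were higher, beside 37.4% of all genes tested, and 10 were lower, beside 19.6%. The median log2 fold change of the tested members was -0.077, against 0.14 over all genes tested. *Slc4a1*, *Rhd* and *Trim10* passed the filter through their WT values alone and so could be tested only because WT was high.

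Levels without a test were read for all 37 members. The 3 WT values lay above the 3 mutant values for 20 members and below them for 4, beside 17.8% and 27.0% of the 26528 genes with any value above 0. Among the 27 erythroid members the groups were separated with WT higher for 19 and with mutant higher for 1, *Epb41*. Among the 10 heme members they were separated with mutant higher for 3 (*Alas1*, *Alad* and *Uros*) and with WT higher for 1, *Alas2*, a share of the higher genes near the 27.0% of all genes.

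**Figure D1:**
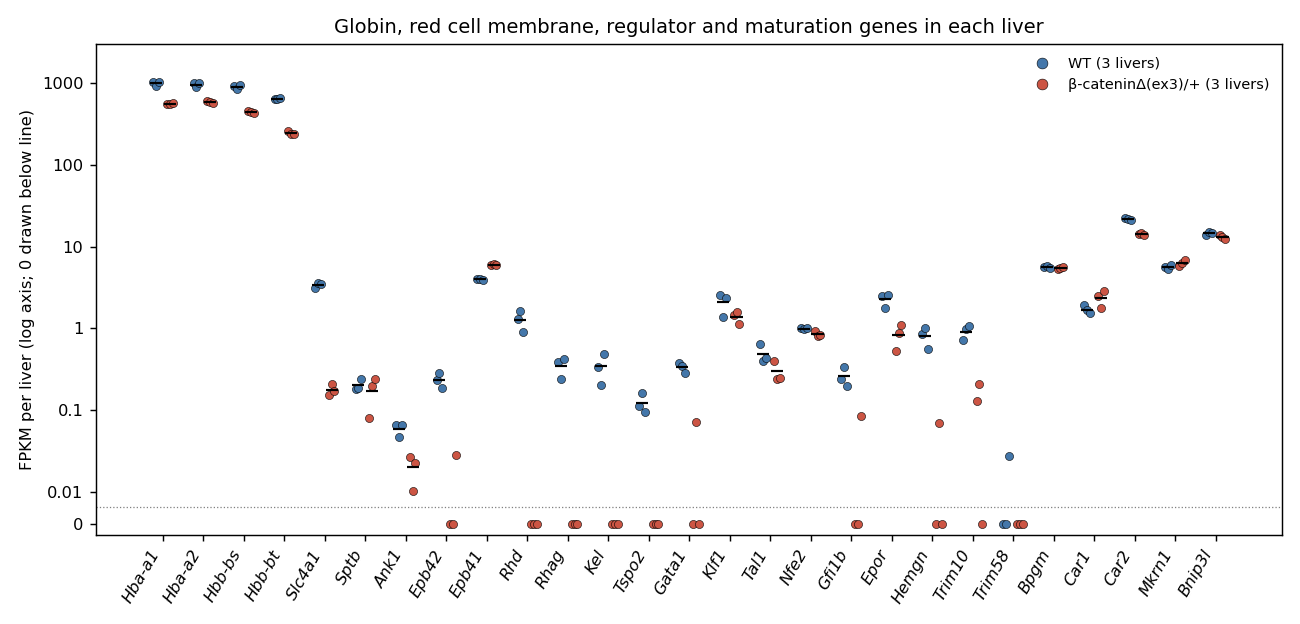
FPKM of the 27 erythroid members in each liver (points, log axis, with values of 0 drawn below the dotted line), WT (blue) and *β-cateninΔ(ex3)/+* (red) side by side, with bars at group means where no liver is at 0. The globins stand between 633 and 1032 FPKM in WT, most membrane and regulator genes stand below 3.61 FPKM, and the mutant points lie below the WT points for 19 of the 27 genes.

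The 4 adult globin genes encode the chains of adult hemoglobin, *Hba-a1* (ENSMUSG00000069919, chromosome 11 from 32283511 to 32284465) and *Hba-a2* the α chain and *Hbb-bs* (ENSMUSG00000052305, chromosome 7 from 103826534 to 103827928) and *Hbb-bt* (ENSMUSG00000073940, chromosome 7 from 103812524 to 103813996) the β chain. In WT replicates 1 to 3, *Hbb-bt* stood at 636, 633 and 650 FPKM, and in mutant replicates 1 to 3 at 258, 239 and 235 FPKM, a log2 fold change of -1.39 (SE 0.041, limma with Benjamini-Hochberg adjustment, adjusted p = 1.91e-06). *Hbb-bs* had 926, 846 and 946 FPKM in WT and 454, 443 and 428 FPKM in mutant livers, a log2 fold change of -1.03 (SE 0.049, limma adjusted p = 1.39e-05). Both β globin genes fell, and no mutant liver came near the lowest WT liver.

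*Hba-a1* had 1027, 907 and 1032 FPKM in WT and 554, 548 and 564 FPKM in mutant livers, a log2 fold change of -0.83 (SE 0.055, limma adjusted p = 5.5e-05). *Hba-a2* had 988, 893 and 993 FPKM in WT and 595, 593 and 571 FPKM in mutant livers, a log2 fold change of -0.71 (SE 0.048, limma adjusted p = 6.3e-05). Both α globin genes were separated between the groups but stayed under a 2-fold change, and *Hba-a1* passed it, at -1.02, with median-ratio scaling. The summed level of the 4 genes was 3492 ± 186 FPKM in WT and 1828 ± 31.3 FPKM in mutant livers (SD, n = 3 each), 52.3% of WT. The coding sequences of *Hba-a1* and *Hba-a2* were identical at 428 of 429 bases and those of *Hbb-bs* and *Hbb-bt* at 443 of 444 bases in GENCODE M21, so fragments could be split between the genes of a pair and the sums are firmer than the single values.

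The β chain was lower by more than the α chain. The β sum was 44.4% of WT and the α sum 58.7% of WT. The ratio of α to β globin was 1.29, 1.22 and 1.27 in WT and 1.61, 1.67 and 1.71 in mutant livers, with no overlap (two-sided exact permutation p = 0.1, the smallest that 3 against 3 livers allow). Such a ratio is taken within a liver and does not change with a scaling of the whole library. The ratio of *Hbb-bt* to *Hbb-bs* was 0.707 ± 0.035 in WT and 0.553 ± 0.015 in mutant livers (SD, n = 3 each), and that of *Hba-a1* to *Hba-a2* was 1.03 ± 0.014 and 0.948 ± 0.035, again without overlap in either case (exact permutation p = 0.1 each). The genes of each pair are nearly identical in coding sequence. Ratios within a pair can therefore depend on how fragments were assigned, which was not tested.

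**Figure D2:**
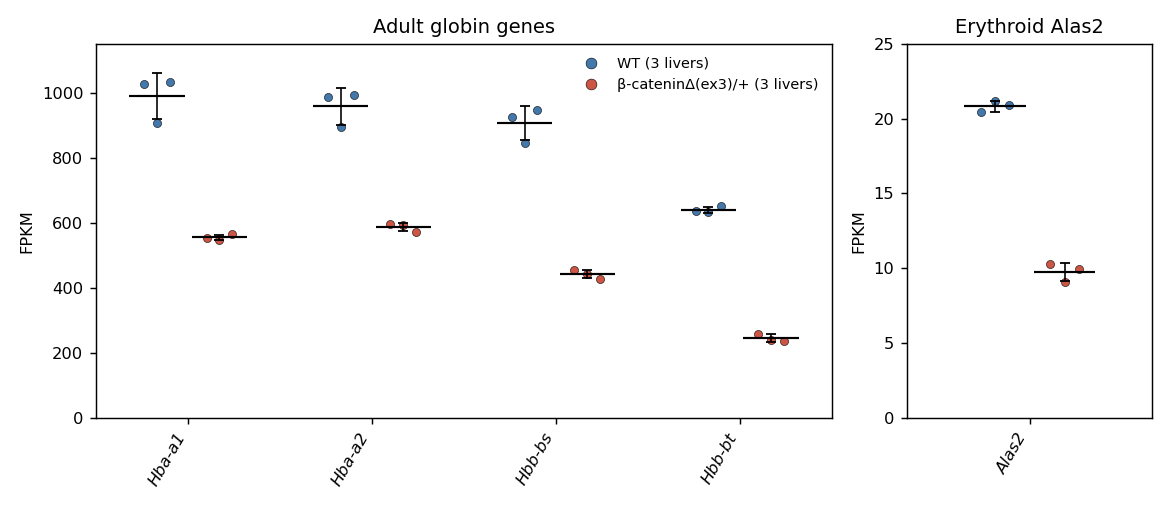
FPKM of the 4 adult globin genes (left) and of *Alas2* (right) in each liver on linear axes from 0, with points for livers, long bars for group means and whiskers for the SD. Each mutant point lies below each WT point, with *Hbb-bt* at 38.2% and *Hba-a2* at 61.2% of the WT mean.

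*Alas2* (ENSMUSG00000025270, chromosome X from 150547375 to 150570638), the erythroid form of the first enzyme of heme synthesis, fell to 46.8% of WT, within the range of the globins. It had 20.4, 21.2 and 20.9 FPKM in WT and 10.3, 9.05 and 9.92 FPKM in mutant livers, a log2 fold change of -1.02 (SE 0.056, limma adjusted p = 2.37e-05). Its call rests on a narrow margin, since the log2 fold change was -0.98 without mutant replicate 2. Per 100 FPKM of β globin, *Alas2* had 1.35 ± 0.070 FPKM in WT and 1.42 ± 0.087 FPKM in mutant livers (SD, n = 3 each), values that overlapped (exact permutation p = 0.2). Per 100 FPKM of all 4 globins it had 0.571, 0.646 and 0.578 FPKM in WT and 0.552, 0.496 and 0.552 FPKM in mutant livers, which did not overlap (exact permutation p = 0.1).

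Several membrane genes were lower by more than the globins. *Slc4a1* (ENSMUSG00000006574, chromosome 11 from 102348824 to 102365280) encodes band 3, the anion exchanger that anchors the red cell skeleton. It had 3.16, 3.61 and 3.47 FPKM in WT and 0.154, 0.210 and 0.169 FPKM in mutant livers, a ratio of the means of 19.2. On the log2(FPKM + 1) scale its change was -1.9 (SE 0.065, limma adjusted p = 3.34e-06), and with a pseudocount of 0.1 it was -3.66. *Slc4a1* could be tested only because WT was high. Set on its longest transcript, its FPKM corresponded to about 355, 404 and 385 fragments in WT and about 13, 16 and 15 fragments in mutant livers. Per 1000 FPKM of globin, *Slc4a1* had 0.883, 1.10 and 0.958 FPKM in WT and 0.0828, 0.115 and 0.0940 FPKM in mutant livers, 10.1-fold lower with no overlap (exact permutation p = 0.1).

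*Rhd* (ENSMUSG00000028825, chromosome 4 from 134864536 to 134896172), the gene of the Rh blood group protein, had 1.3, 1.65 and 0.897 FPKM in WT, about 48, 62 and 33 fragments, and was listed at 0 in all 3 mutant livers (limma adjusted p = 0.000467 on the log2(FPKM + 1) scale). *Rhd* could be tested only because WT was high, so this p-value adds no separate support for a fall. Its partner *Rhag* had 0.386, 0.241 and 0.422 FPKM in WT and was listed at 0 in the mutant livers. *Kel*, the Kell blood group protease, had 0.341, 0.202 and 0.483 FPKM in WT and *Tspo2*, a cholesterol-handling protein of erythroblasts, 0.112, 0.163 and 0.0946 FPKM, and both were listed at 0 in the mutant livers. These 3 genes lay under the filter and were not tested. With 7 to 30 estimated fragments per WT liver, and shallower mutant libraries, a low remaining level was not detectable for them.

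Other skeleton genes were nearer to the floor or moved differently. *Epb42*, which ties band 3 to ankyrin, had 0.233, 0.281 and 0.184 FPKM in WT and 0, 0 and 0.0284 FPKM in mutant livers. *Ank1*, the ankyrin itself, had 0.0593 ± 0.0110 FPKM in WT and 0.020 ± 0.0087 FPKM in mutant livers (SD, n = 3 each), again without overlap. *Sptb*, the β spectrin gene, had 0.184, 0.188 and 0.239 FPKM in WT and 0.0792, 0.200 and 0.239 FPKM in mutant livers, which overlapped. *Epb41*, whose protein 4.1 is made in many cell types, was the exception, at 3.97, 4.06 and 3.93 FPKM in WT and 5.97, 6.15 and 5.94 FPKM in mutant livers, a log2 fold change of 0.49 below the fold threshold (SE 0.045, limma adjusted p = 0.00023).

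Among the regulators, *Epor*, the receptor for erythropoietin, had 2.48, 1.76 and 2.53 FPKM in WT and 0.523, 0.885 and 1.11 FPKM in mutant livers. The mutant mean was 37.3% of WT without overlap, but on the log2(FPKM + 1) scale the change was -0.83 (SE 0.156, limma adjusted p = 0.00519), under 2-fold. It passed with a pseudocount of 0.1, at -1.36, where 7.54% of all genes tested fell and 12.9% rose. *Gata1*, the master factor of the lineage, had 0.381, 0.350 and 0.281 FPKM in WT and 0, 0.0708 and 0 FPKM in mutant livers, about 13 to 18 fragments against at most 2.

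*Hemgn*, a nuclear protein of erythroblasts, had 0.862, 1.003 and 0.560 FPKM in WT and 0, 0.0706 and 0 FPKM in mutant livers. *Gfi1b*, a repressor of erythroid and megakaryocyte cells, had 0.241, 0.336 and 0.198 FPKM in WT and 0, 0 and 0.0841 FPKM in mutant livers. Both were separated between the groups and were not tested, as was *Gata1*. The other 3 regulators kept more of their level. *Klf1*, the activator of adult β globin, had 2.55, 1.40 and 2.33 FPKM in WT and 1.47, 1.58 and 1.13 FPKM in mutant livers, which overlapped (log2 fold change -0.35, SE 0.167, limma adjusted p = 0.119). *Nfe2*, a factor of erythroid cells and megakaryocytes, was 0.995 ± 0.012 FPKM in WT and 0.849 ± 0.063 FPKM in mutant livers (SD, n = 3 each, log2 fold change -0.11, limma adjusted p = 0.148). The *Nfe2* groups did not overlap. *Tal1*, which also serves endothelial cells and blood progenitors, had 0.489 ± 0.129 and 0.299 ± 0.0906 FPKM (SD, n = 3 each) with overlap.

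Genes of red cell maturation and metabolism fell into 3 kinds. *Trim10*, an erythroid ubiquitin ligase, had 0.713, 0.971 and 1.06 FPKM in WT and 0.128, 0.206 and 0 FPKM in mutant livers, a log2 fold change of -0.78 (SE 0.107, limma adjusted p = 0.00131) that reached -2.39 with a pseudocount of 0.1. This gene, too, could be tested only because WT was high. *Car2*, a carbonic anhydrase of red cells and other tissues, had 22.6, 21.5 and 21.1 FPKM in WT and 14.1, 14.7 and 14.0 FPKM in mutant livers, a log2 fold change of -0.58 under 2-fold (SE 0.046, limma adjusted p = 0.000126). Per 100 FPKM of globin *Car2* was higher in mutant livers, at 0.780 ± 0.026 against 0.624 ± 0.036 FPKM (SD, n = 3 each, exact permutation p = 0.1).

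The remaining maturation genes did not pass the test. *Car1*, the other red cell carbonic anhydrase, had 1.70 ± 0.198 FPKM in WT and 2.38 ± 0.575 FPKM in mutant livers (SD, n = 3 each, log2 fold change 0.31, SE 0.139, limma adjusted p = 0.102), with overlap. *Bnip3l*, which clears mitochondria from the reticulocyte and acts in other cells, had a log2 fold change of -0.13 (SE 0.054, limma adjusted p = 0.0808), although its groups did not overlap. *Bpgm*, which makes the allosteric regulator of hemoglobin, had one of -0.044 (SE 0.049, limma adjusted p = 0.471). *Mkrn1*, a ubiquitin ligase made in many tissues, had 5.63 ± 0.309 and 6.37 ± 0.561 FPKM in WT and mutant livers (SD, n = 3 each, limma adjusted p = 0.132), and its sign changed with scaling. *Trim58*, a ubiquitin ligase of late erythroblasts, was listed at 0 in 5 of the 6 livers.

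The heme synthesis enzymes summed to 173 ± 4.37 FPKM in WT and 277 ± 4.93 FPKM in mutant livers (SD, n = 3 each), 161% of WT, and most of that increase was *Alad*. *Alad* (ENSMUSG00000028393, chromosome 4 from 62509169 to 62519894), which joins 2 aminolevulinic acid molecules into porphobilinogen, had 96.3, 87.2 and 98.0 FPKM in WT and 195, 194 and 196 FPKM in mutant livers. Its log2 fold change was 1.05 (SE 0.049, limma adjusted p = 1.31e-05). *Alad* was separated between the groups, but it stayed under 2-fold at 0.86 with median-ratio scaling, 0.84 with quantile normalization and 0.98 when each library was rescaled to the same total.

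*Uros* (ENSMUSG00000030979, chromosome 7 from 133686243 to 133710072) closes the porphyrin ring as uroporphyrinogen III synthase. It had 2.68, 1.9 and 2.04 FPKM in WT and 5.83, 5.22 and 7.72 FPKM in mutant livers, a log2 fold change of 1.17 (SE 0.154, limma adjusted p = 0.00111), which was 0.99 with quantile normalization. *Alas1* (ENSMUSG00000032786, chromosome 9 from 106233455 to 106248654), the housekeeping form that heme represses in hepatocytes, had 10.3, 9.96 and 8.74 FPKM in WT and 14.0, 14.7 and 16.4 FPKM in mutant livers. The *Alas1* groups did not overlap, at a log2 fold change of 0.59 under 2-fold (SE 0.084, limma adjusted p = 0.00157). As *Alas2* fell, the ratio of *Alas1* to *Alas2* went from 0.503, 0.470 and 0.418 in WT to 1.36, 1.63 and 1.66 in mutant livers (exact permutation p = 0.1). The coding sequences of these paralogs were 62.3% identical, far less alike than the globin pairs.

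The later enzymes did not pass the test. *Urod*, which decarboxylates the ring, had 24.1 ± 2.15 and 27.6 ± 2.07 FPKM in WT and mutant livers (SD, n = 3 each, log2 fold change 0.19, limma adjusted p = 0.101). *Fech*, which inserts the iron, had 4.01, 2.39 and 2.44 FPKM in WT and 3.6, 4.25 and 4.60 FPKM in mutant livers, and its groups overlapped through WT replicate 1 (log2 fold change 0.40, SE 0.172, limma adjusted p = 0.0903). *Cpox* and *Ppox*, the oxidases of the last steps in mitochondria, had log2 fold changes of 0.041 and 0.035 (SE 0.048 each, limma adjusted p = 0.499 and 0.569). The biliverdin reductases *Blvra* and *Blvrb*, which turn biliverdin into bilirubin, had log2 fold changes of 0.057 and 0.0090 (limma adjusted p = 0.516 and 0.895). The signs for these last 4 genes changed with the scaling of the libraries and carry no direction.

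**Figure D3:**
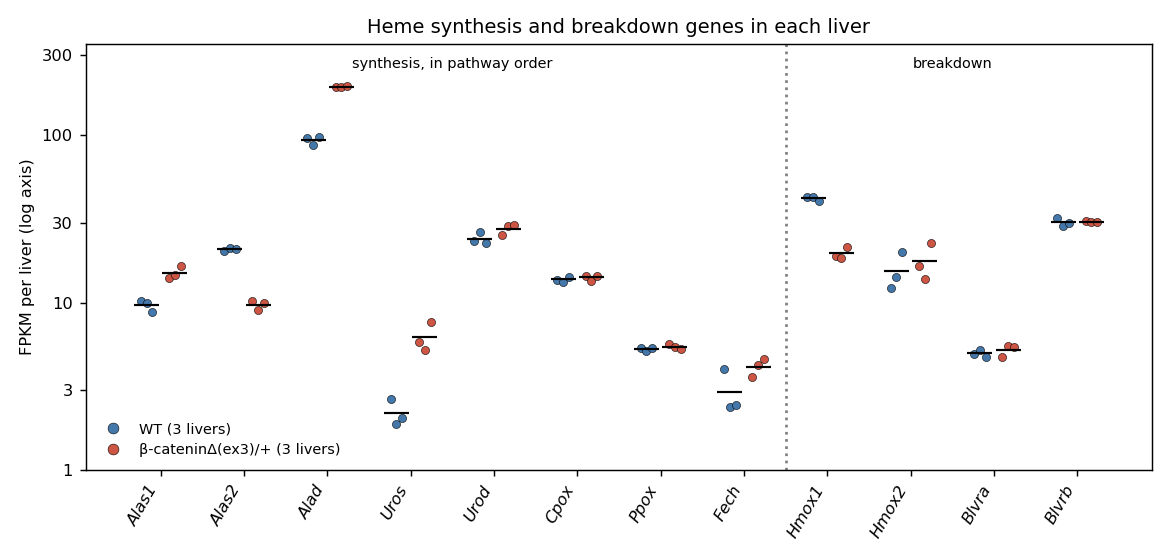
FPKM of the heme synthesis and breakdown genes, with *Hmox1* and *Hmox2* added, in each liver (points, log axis, bars at group means), WT (blue) and *β-cateninΔ(ex3)/+* (red) side by side. *Alas1*, *Alad* and *Uros* are separated with the mutant livers higher, *Alas2* and *Hmox1* with WT higher, and the other genes overlap.

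**Figure D4:**
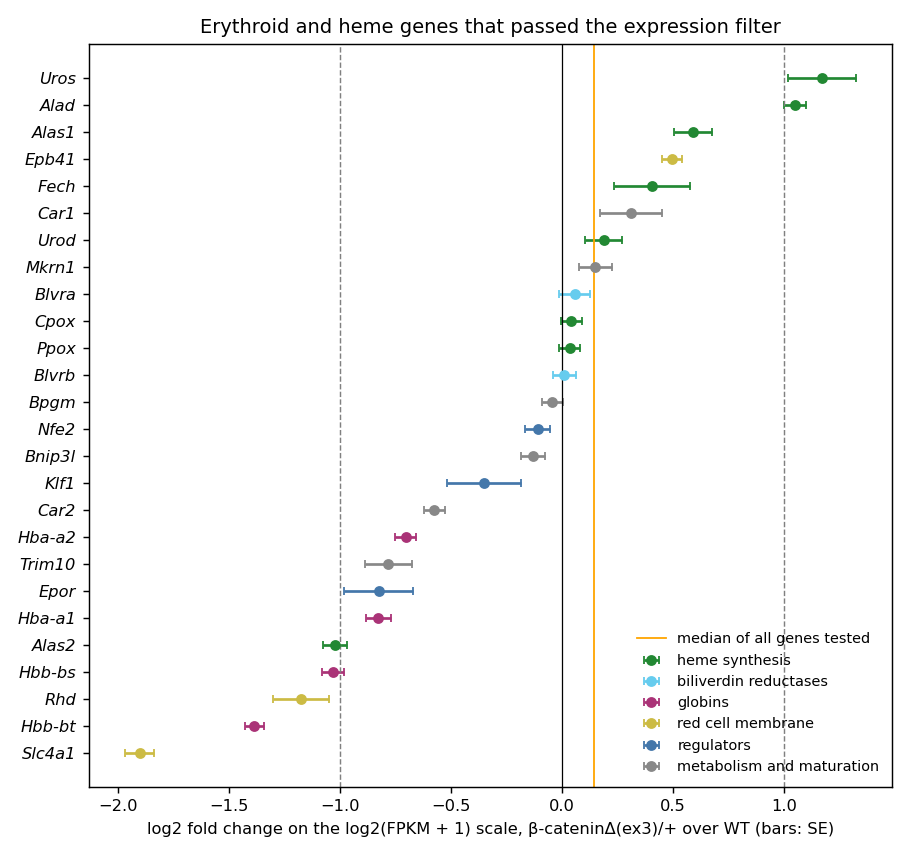
Log2 fold change of mutant over WT on the log2(FPKM + 1) scale for the 26 members tested, with SE as bars, dashed lines at a 2-fold change and an orange line at the median of all genes tested. The changes run from -1.9 for *Slc4a1* to 1.17 for *Uros*, and 7 members pass both thresholds.

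**Figure D5:**
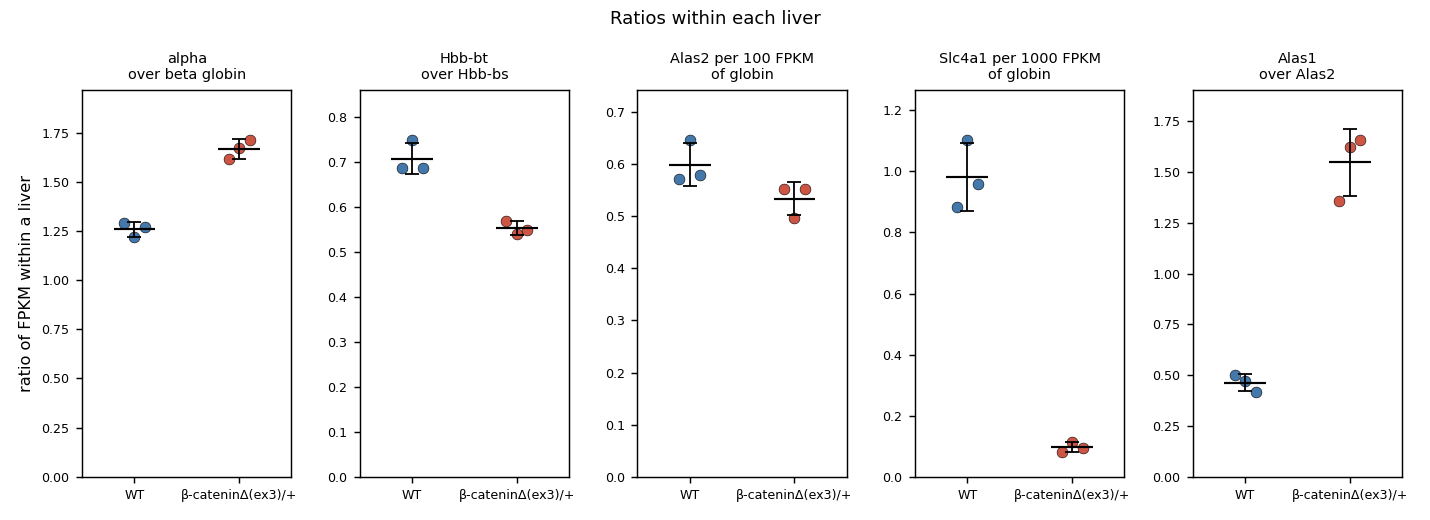
Ratios of FPKM taken within each liver (points, with long bars for means and whiskers for the SD), WT against *β-cateninΔ(ex3)/+*, each on an axis from 0. The α to β ratio and *Alas1* over *Alas2* are higher in every mutant liver, and *Slc4a1* per 1000 FPKM of globin, *Hbb-bt* over *Hbb-bs* and, by the smallest margin, *Alas2* per 100 FPKM of globin are lower in every mutant liver.

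Genes of the same pathways that were not members were read from 2 further lists. Of 19 other genes of heme transport, use and breakdown, 3 rose and 1 fell, beside 8.17% and 4.52% of all genes tested, and 10 were higher at an adjusted p under 0.05 and any fold, beside 37.4%. The list's median log2 fold change was 0.33 against 0.14 over all genes tested. *Tmem14c*, a mitochondrial porphyrin carrier, rose from 68.8 ± 8.09 to 149 ± 2.83 FPKM and *Abcb6*, a porphyrin transporter, from 7.97 ± 0.847 to 17.3 ± 0.197 FPKM (SD, n = 3 each). Both stayed under 2-fold with median-ratio scaling, at 0.92 and 0.86, and *Abcb6* also without WT replicate 1, at 0.96. *Hpx*, the plasma protein hemopexin that binds free heme, rose at the edge of the threshold from 2680 ± 38.7 to 5363 ± 28.6 FPKM (SD, n = 3 each), and its log2 fold change was 0.81 with median-ratio scaling, 0.99 without WT replicate 1 and 0.997 without mutant replicate 1. *Hmox1*, the inducible heme oxygenase that macrophages use on red cell heme, fell from 42.0 ± 1.29 to 19.7 ± 1.70 FPKM (SD, n = 3 each, log2 fold change -1.06).

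Of 34 other erythroid genes, 20 were tested, of which 1 fell and 1 rose, beside 4.52% and 8.17% of all genes tested, at a median log2 fold change of 0.15 against 0.14 over all genes tested. Read without the filter, the groups were separated with WT higher for 16 of the 34 and with mutant higher for 4, beside 17.8% and 27.0% of the genes with any value above 0. *Tfrc*, the transferrin receptor of erythroblasts and other dividing cells, fell from 18.6 ± 0.578 to 7.04 ± 0.672 FPKM (SD, n = 3 each). *Slc6a9*, a glycine transporter of erythroid and other cells, rose from 0.835 ± 0.126 to 3.40 ± 0.349 FPKM (SD, n = 3 each). *Myb*, a factor of early blood cells, lay under the filter with 0.541 ± 0.0660 and 0.0153 ± 0.00237 FPKM (SD, n = 3 each).

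Markers of other blood and liver cells also differed between the groups, in both directions. The counts below stand beside 4.52% of all genes tested that fell and 8.17% that rose. Of 10 megakaryocyte and platelet genes, 2 of the 5 tested fell (*Pf4* and *Ppbp*, at log2 fold changes of -2.41 and -2.43), with a list median of -0.84 and a summed level of 30.0 to 32.4 FPKM in WT and 4.81 to 6.33 FPKM in mutant livers and *Gp6* at 0 in the mutant livers. Of 12 granulocyte genes, 9 of the 11 tested fell and 1 rose (4 of the 11 were tested only because WT was high), with a list median of -2.50 and a summed level of 360 to 386 FPKM in WT and 51.5 to 55.0 FPKM in mutant livers and *Ly6g* at 0 in the mutant livers. The 9 progenitor genes summed to 10.6 to 12.3 FPKM in WT and 10.6 to 12.6 FPKM in mutant livers, and 2 of the 5 tested were lower at a limma adjusted p under 0.05 but under 2-fold (2 of the 5 were tested only because 1 group was high), at a list median of -0.20. Of 12 Kupffer cell genes 7 rose and 1 fell, with a list median of 1.12 and a summed level of 418 to 436 FPKM in WT and 1001 to 1014 FPKM in mutant livers. The hepatocyte genes, 9 in the table, include the most abundant transcripts of the libraries, and they summed to 86488 to 88879 FPKM in WT and 40536 to 40846 FPKM in mutant livers, with 4 of the 9 lower by both thresholds (*Ahsg*, *Apoa1*, *Pck1* and *Ttr*) and a list median of -0.74. At a limma adjusted p under 0.05 and any fold, 8 of the 9 were lower and 1 higher, beside 19.6% and 37.4% of all genes tested. The higher gene was *Cps1*, at 89.0 ± 2.60 FPKM in WT and 177 ± 2.48 FPKM in mutant livers (SD, n = 3 each). Its log2 fold change of 0.98 was under 2-fold (limma adjusted p = 3.37e-06). None of the lists has all of its genes at 0 in either group. The part of these differences, of depth and of library composition in the erythroid and heme values was not tested.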

How the data were processed

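RNA from 3 WT and 3 *β-cateninΔ(ex3)/+* livers was compared. The authors deposited FPKM (fragments scaled to transcript length and to all mapped fragments), which are not counts. Per the submitters' processing notes, cutadapt 1.9, HISAT2 2.0.4, StringTie 1.3.4d, DESeq2 and edgeR were named, with no build; 32 of the 37 members had the coordinates of GENCODE M21 (GRCm38). The study describes calls at a false discovery rate below 0.05 and a 2-fold change, with a count test that FPKM do not permit.

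log2(FPKM + 1) of the 13243 genes with a mean of at least 0.5 FPKM was fitted over the 6 livers with limma 3.58.1 (trend) in R 4.3.3, with Benjamini-Hochberg adjustment over all genes and both thresholds. On simulated data with 200 changed genes, 96% were recovered. These changes were all larger than 2-fold and were placed only in genes above a minimum WT level. Recovery near 2-fold or at low FPKM was therefore not measured. Single ratios were compared by two-sided exact permutation tests (numpy 2.4.6). Depth was estimated from steps in the FPKM of 5635 single-exon genes, and 24.7% to 35.3% of low values lay within 0.02 fragments of a step against 4% by chance, so whole reads were not recovered. Fragments per gene are approximate. Promoter windows are RefSeq (GRCm38.p6), and coding identity used the longest reading frame in GENCODE M21.

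The members and lists were chosen with earlier results of these data known. All members are reported. Of each other list, up to 4 genes with the largest changes past both thresholds were named, with *Ctnnb1*, *Glul*, *Xist* and *Eif2s3y* as checks of the labels. *Hmox2*, *Myb*, *Gp6*, *Ly6g*, *Prtn3*, *Elane*, *Mpo*, *Marco*, *Slc40a1* and *Cps1* were chosen after their values were seen. Alternatives were a pseudocount of 0.1, no filter or a mean of at least 1 FPKM, median-ratio scaling, quantile normalization, rescaling to the same total, no trend, any fold change, a replicate block and each liver left out. Some genes of the other lists are not reported here.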

Additional observations from a re-analysis of the deposited data

How the results depend on the processing

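Over the 26 members tested, 387 comparisons with alternative settings were made. Of these, 352 kept direction and side of the thresholds, 6 lost the call, 12 gained it and 17 changed sign. The filter settings, the fit without trend, any fold change and the replicate block left each member's log2 fold change as it was. No sign could change in them, and any fold change could only add calls. With any fold change allowed, 4 members were higher and 10 lower (erythroid 1 and 9, heme 3 and 1), as against 2 and 5 (erythroid 0 and 4, heme 2 and 1), and 4952 and 2599 of all genes. A pseudocount of 0.1 gave 2 members higher and 7 lower (erythroid 0 and 6, heme 2 and 1), and 1706 and 999 of all genes. The count of higher members, all of them heme genes, was 1 with median-ratio scaling, 0 with quantile normalization and 1 when rescaled to the same total. The cause was not tested. In the same order, 6, 5 and 7 members were lower, beside 751, 812 and 872 of all genes. With 1 liver left out, 1 to 2 members were higher (heme 1 to 2, erythroid 0) and 4 to 5 lower (erythroid 4, heme 0 to 1), the low values coming without WT replicate 2 (*Alad* at 0.998) and mutant replicate 2 (*Alas2* at -0.98), and 1064 to 1103 and 583 to 604 of all genes.

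Signs changed with median-ratio scaling, quantile normalization and rescaling to -0.14, -0.25 and -0.028 for *Cpox*, -0.13, -0.17 and -0.029 for *Ppox*, -0.10, -0.14 and -0.0037 for *Blvra*, and -0.18, -0.28 and -0.062 for *Blvrb*. *Blvrb* ranged from -0.031 to 0.054 with 1 liver left out (-0.031 without WT replicate 2, -0.00050 without mutant replicate 1). *Mkrn1* was -0.017 with median-ratio scaling and -0.065 with quantile normalization, and *Urod* -0.12 with quantile normalization.

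With the replicate number as a block, 2 members were higher and 5 lower, and 1075 and 598 of all genes. The numbers did not pair the livers (correlations of deviations 0.027, 0.021 and -0.005). Depth limits the genes below 0.5 FPKM, which few fragments carry.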

Other observations

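Within the granulocyte and Kupffer cell lists, single genes moved against most of the others. Among the granulocyte genes, *Ngp*, *Camp*, *S100a8* and *S100a9* had log2 fold changes of -4.04, -3.68, -3.40 and -3.18. *Prtn3*, the neutrophil granule protease proteinase 3, instead rose from 3.26 ± 0.919 to 20.6 ± 2.52 FPKM (SD, n = 3 each). *Elane* and *Mpo* of the same list fell, at -1.46 and -1.35, *Mpo* being tested only because WT was high. Among the Kupffer cell genes, *Cd5l*, *Clec4f*, *C1qa* and *Timd4* rose with log2 fold changes of 1.81, 1.68, 1.56 and 1.41, whereas the scavenger receptor gene *Marco* fell with one of -1.36 and the iron exporter gene *Slc40a1* was lower by less than 2-fold, with one of -0.80 (limma adjusted p = 4.7e-05). *Prtn3*, *Marco*, *Elane*, *Mpo* and the other 8 called genes named here kept their direction and their call in all 14 alternative fits. They were singled out after their values were seen.

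Of 12 genes of dividing cells, 3 rose (*Plk1*, *Ccnb1* and *Ube2c*), beside 8.17% of all genes tested, and 11 were higher at a limma adjusted p under 0.05 and any fold, beside 37.4%. *Ube2c* stayed under 2-fold at 0.88 with median-ratio scaling and 0.995 without mutant replicate 2.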
